A study of Oreochromis niloticus with 12 samples.

Results

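Junction genes of the Nile tilapia (Oreochromis niloticus) gonad were followed across 12 RNA sequencing libraries. The set was taken by gene symbol and holds the claudins, the tight junction scaffold and membrane genes (tjp, ocln, marveld, jam and esam), the numbered cadherins, the connexins, and the desmosomal dsc, dsg and dsp genes. The symbols matched 122 of the 22283 genes in the table, namely 34 claudins, 36 connexins, 29 cadherins, 14 tjp, ocln, marveld, jam or esam genes, and 3 desmosomal genes (dspa, dsg2l and dsc2l). The remaining 6 matched only by the start of their symbol and are not junction genes: 2 DSCAM copies, 2 DSCAML1 copies, dscc1 and dscr3. They are counted as members below and named as such where they passed a test. A total of 33 members carry a symbol that several genes share, and each of these is called a copy here, with its assignment and read count open to doubt. Of the 122 members, 6 had no counts in any library (3 claudins and 3 connexins). A further 50 were too low to be tested in any comparison, and 66 were tested in at least 1.

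The libraries fall into 4 groups of 3: testis labelled as SF1-suppressed, testis control, ovary labelled as SF1-suppressed and ovary control. SF1 (nr5a1) is a nuclear receptor that drives steroid synthesis in the gonad. According to the labels, antisense RNA against SF1 was carried into eggs with a transfection reagent, and control eggs received the reagent with either water or a blank plasmid. The labels do not say which of these controls, or which antisense fragment, each control or suppressed library stands for. All fish spent their first 30 days in a small circulating system, and the culture ran for 150 days. Nothing in the labels says whether a library is 1 fish or a pool, so the p-values below rest on the spread among these libraries alone, and that spread may be technical.

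Tight junctions seal neighbouring cells with strands of claudins and occludins that are tied to the actin skeleton by the zonula occludens scaffolds (the tjp genes). In the vertebrate testis, Sertoli cells form such a seal, the blood-testis barrier, and in mice claudin 11 is a main strand protein of it. Gap junctions are channels built of connexins through which neighbouring cells exchange small molecules, including the oocyte and its follicle cells. Cadherins hold cells together through catenins at adherens junctions, and desmosomal cadherins do so through desmoplakin and plakophilins.

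Library depth ran from 36827789 to 60473895 counts. The check of the targeted gene did not show a fall in the testis: nr5a1 stood at 23.7, 24.3 and 6.34 FPKM (fragments per kilobase of transcript, scaled to library depth) in the testis libraries labelled SF1-suppressed, against 9.26, 11.8 and 17.9 FPKM in control testis. Its log2 fold change was 0.58 ± 0.44 (SE; edgeR quasi-likelihood test, adjusted p = 0.415), and 0.97 without suppressed replicate 3 (edgeR adjusted p = 0.00613). In ovary nr5a1 had 1.35, 2.95 and 1.73 FPKM in libraries labelled SF1-suppressed and 1.37, 1.95 and 2.80 FPKM in controls, a log2 fold change of 0.04 ± 0.34 (SE; edgeR adjusted p = 0.935). The groups are therefore called by their labels throughout, and no direction below is one of a shown fall in SF1. Replicate 3 of the testis libraries labelled SF1-suppressed was unlike the other two. The SD of log2 differences over genes was 0.865 to replicate 1 and 0.818 to replicate 2, and it was 0.445 between those. Values without it are given beside the results it moved most. Germ cell markers followed the tissue labels: 16 of 18 tested spermatogenic genes were higher and 8 of 10 tested oocyte genes were lower in control testis than in control ovary. Of these spermatogenic genes, 12 also reached the filter (1 FPKM in 3 or more libraries) in the ovary fit. The others reached it with help from testis libraries, which favoured a higher value there, so they are weak support. Of the oocyte genes, 9 also reached it in the testis fit. Of all genes tested, 44.1% were higher and 42.3% lower.

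Each gonad had its own leading claudin. In testis it was cldn11a, which supplied from 46.7 to 48.6% of the summed claudin FPKM in libraries labelled SF1-suppressed and from 57.2 to 59.7% in controls. In ovary it was cldnd, a teleost claudin, with 92.0 to 92.5% of the claudin sum in libraries labelled SF1-suppressed and 84.7 to 86.8% in controls. By mean FPKM cldnd ranked 17 of 22283 genes in ovary labelled SF1-suppressed and 24 in control ovary, while no other member ranked above 453 in any group. The summed connexin FPKM was led by cx32.3 in each testis library (39.1 to 60.7% in libraries labelled SF1-suppressed, 58.4 to 62.6% in controls) and by cx35.4 in each ovary library (30.3 to 35.0% in libraries labelled SF1-suppressed, 27.1 to 33.0% in controls). Among scaffold and membrane genes, jam3a led the testis libraries labelled SF1-suppressed and tjp1b led the control testis libraries, while jam2a led all 6 ovary libraries. Among cadherins a copy of CDH2, or N-cadherin, led all testis libraries except suppressed replicate 3, where cdh17 led, and a copy of cdh7 (ENSONIG00000010135) led all 6 ovary libraries.

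**Figure D1:**
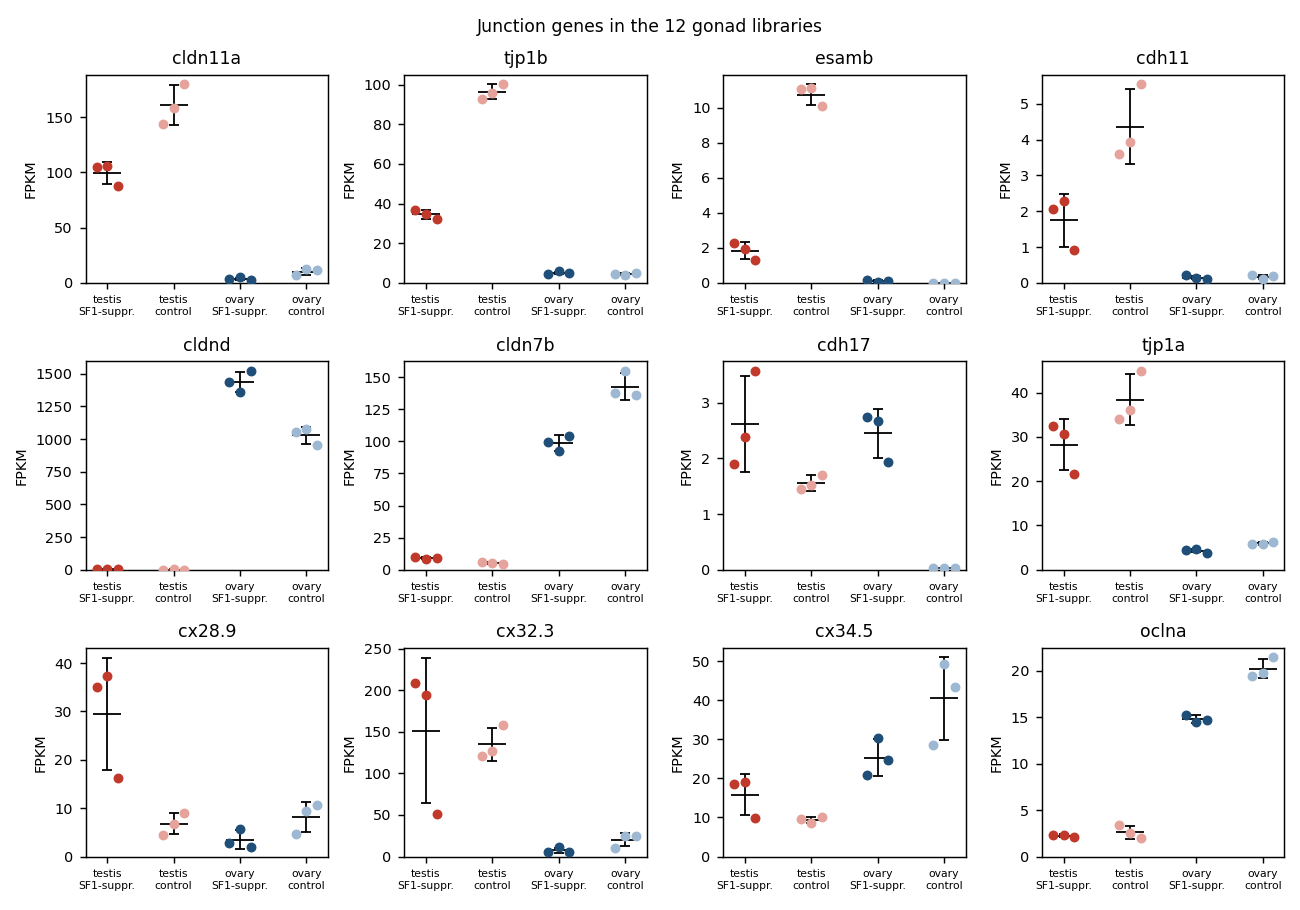
FPKM of 12 junction genes in the 4 groups (x axis), 1 point per library, with the mean (line) and SD (bars) of 3 libraries. The testis libraries labelled SF1-suppressed lie below all control testis libraries for cldn11a, tjp1b, esamb and cdh11 and above them for cx28.9 and cdh17, and cldnd reaches from 1362 to 1519 FPKM in ovary labelled SF1-suppressed against 955 to 1078 in control ovary.

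In testis, 10 of the 56 members tested passed the test between labels (17.9%), against 10.9% of all 14368 genes tested. The 4 that were higher in testis labelled SF1-suppressed were the claudins cldn7b and CLDN14 and the connexins cx28.9 and cx34.5 (7.14% of members, against 5.25% of all genes). The 6 that were lower were the strand claudin cldn11a, the scaffold tjp1b, the adhesion gene esamb, the cadherin cdh11, the desmocollin dsc2l and, among the genes that are not junction genes, a DSCAML1 copy (10.7% of members, against 5.68% of all genes). The groups did not overlap for 5 members that were higher and 18 that were lower, against 12.5% and 26.4% of all genes. The median log2 fold change was -0.07 over the members tested and 0.001 over all genes tested. By family, 2 of 12 claudins rose and 1 fell, 2 of 11 connexins rose, 1 of 13 cadherins fell, 2 of 13 scaffold and membrane genes fell and 1 of 3 desmosomal genes fell. Without suppressed replicate 3, 6 members rose (cldn7b, CLDN14, cx28.9, cx34.5, cx32.3 and a CLDN15 copy) and 7 fell (the 6 above and cldn5b) of 54 tested, against 9.19% and 10.5% of all genes. Scaling by total count alone moved the median of all genes by -0.12 and the share of higher genes among all those called to 31.9%, against 48.1% in the main fit, and then 2 members were higher (cldn7b and cx28.9) and 6 lower. In bulk tissue, fewer cells of a type and less RNA per cell cannot be told apart.

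The scaffold tjp1b, which encodes a zonula occludens 1 protein (scaffold GL831160.1, 801899 to 819930, plus strand), had 36.8, 34.6 and 32.4 FPKM in testis labelled SF1-suppressed, against 92.7, 96.0 and 100 FPKM in control testis. Every library labelled SF1-suppressed thus held less than every control, and the log2 fold change was -1.36 ± 0.10 (SE, edgeR adjusted p = 0.000353). Its paralogue tjp1a had 32.4, 30.7 and 21.7 FPKM in testis labelled SF1-suppressed, against 34.1, 36.0 and 45.0 FPKM in controls (log2 -0.33 ± 0.15, SE; edgeR adjusted p = 0.189). The other scaffolds did not pass either, with log2 fold changes of -0.18 ± 0.11 for tjp2a (edgeR adjusted p = 0.315) and 0.10 ± 0.10 for tjp3 (edgeR adjusted p = 0.539). For tjp1a and tjp2a every library labelled SF1-suppressed also lay below every control, as held for 26.4% of all genes. The strand claudin cldn11a (GL831153.1, 1930102 to 1933658, minus strand) had 105, 106 and 87.8 FPKM in testis labelled SF1-suppressed, against 144, 159 and 180 FPKM in control testis, again without overlap. Its log2 fold change was -0.58 ± 0.11 (SE, edgeR adjusted p = 0.0161). This call was lost without suppressed replicate 2, control replicate 2 or control replicate 3 (edgeR adjusted p up to 0.0914), with log2 values from -0.66 to -0.53 in all 6 such fits. It was also lost with the replicate block and in a fit of all 12 libraries (edgeR adjusted p = 0.128 and 0.0878). Its paralogue cldn11b was below the filter, at 157 counts in all in testis labelled SF1-suppressed and 20 in control testis.

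The largest fall among the members tested in testis was that of esamb (GL831303.1, 705058 to 762386, minus strand), which encodes an immunoglobulin adhesion protein named after endothelial cells. It had 2.27, 1.95 and 1.29 FPKM in testis labelled SF1-suppressed, against 11.1, 11.1 and 10.1 FPKM in control testis, so that every library labelled SF1-suppressed lay below every control. The log2 fold change was -2.44 ± 0.20 (SE, edgeR adjusted p = 0.000635). Its paralogue esama had 1.77, 1.90 and 0.428 FPKM in testis labelled SF1-suppressed, against 2.23, 1.98 and 3.43 FPKM in controls (log2 -0.80 ± 0.48, SE; edgeR adjusted p = 0.299), and the endothelial cadherin cdh5 had a log2 fold change of 0.20 ± 0.32 (SE, edgeR adjusted p = 0.708). Without suppressed replicate 3 these values were -0.39 for esama and 0.06 for cdh5. Of 12 other endothelial genes tested, 1 was higher and 0 were lower, against 5.25% and 5.68% of all genes. Without suppressed replicate 3 the counts were 3 and 0, against 9.19% and 10.5% of all genes. The summed FPKM of the endothelial list ran from 36.5 to 67.5 in testis labelled SF1-suppressed and from 51.5 to 64.3 in controls, with none of 13 at 0. The claudin 5 genes, endothelial claudins in mammals, had lower means that did not pass: cldn5b had 25.6, 21.5 and 6.13 FPKM in testis labelled SF1-suppressed against 31.7, 38.9 and 43.8 FPKM in controls, and cldn5a had 1.81, 0.903 and 1.15 FPKM in testis labelled SF1-suppressed against 2.23, 2.88 and 3.37 FPKM in controls. Their log2 fold changes were -1.01 ± 0.42 and -1.002 ± 0.39 (SE; edgeR adjusted p = 0.159 and 0.135), and without suppressed replicate 3 cldn5b passed (log2 -0.62, edgeR adjusted p = 0.0221). Close by on the scaffold of esamb, with 3 genes between, lies jam3a, whose mouse homologue is needed for spermatid polarity. It had 48.6, 49.2 and 64.4 FPKM in testis labelled SF1-suppressed and 49.2, 44.9 and 41.3 FPKM in controls (log2 0.38 ± 0.17, SE; edgeR adjusted p = 0.174), and a log2 fold change of 0.19 without suppressed replicate 3.

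Occludin and tricellulin levels were not shown to change in testis. The occludin gene oclna had 2.37, 2.30 and 2.11 FPKM in testis labelled SF1-suppressed and 3.35, 2.55 and 1.96 FPKM in controls (log2 -0.11 ± 0.27, SE; edgeR adjusted p = 0.825), and oclnb was under 1 FPKM in all 6 libraries. The tricellulin gene marveld2a had a log2 fold change of -0.10 ± 0.28 (SE, edgeR adjusted p = 0.847). The claudin cldn7b, an epithelial claudin, rose to 9.65, 8.15 and 9.19 FPKM in testis labelled SF1-suppressed, against 6.21, 4.93 and 4.71 FPKM in controls (log2 0.88 ± 0.19, SE; edgeR adjusted p = 0.0258). CLDN14 rose to 4.67, 5.59 and 6.51 FPKM in testis labelled SF1-suppressed, against 3.71, 3.87 and 3.45 FPKM in controls (log2 0.72 ± 0.19, SE; edgeR adjusted p = 0.0472). Neither gene overlapped between the groups. Leaving out single libraries ended both calls: that of cldn7b without any library except suppressed replicate 3 (edgeR adjusted p up to 0.148), and that of CLDN14 without suppressed replicate 2 or any of the 3 controls (edgeR adjusted p up to 0.182). CLDN14 was also not called in 7 of 9 fits with another setting, and cldn7b in 1 of 9.

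**Figure D2:**
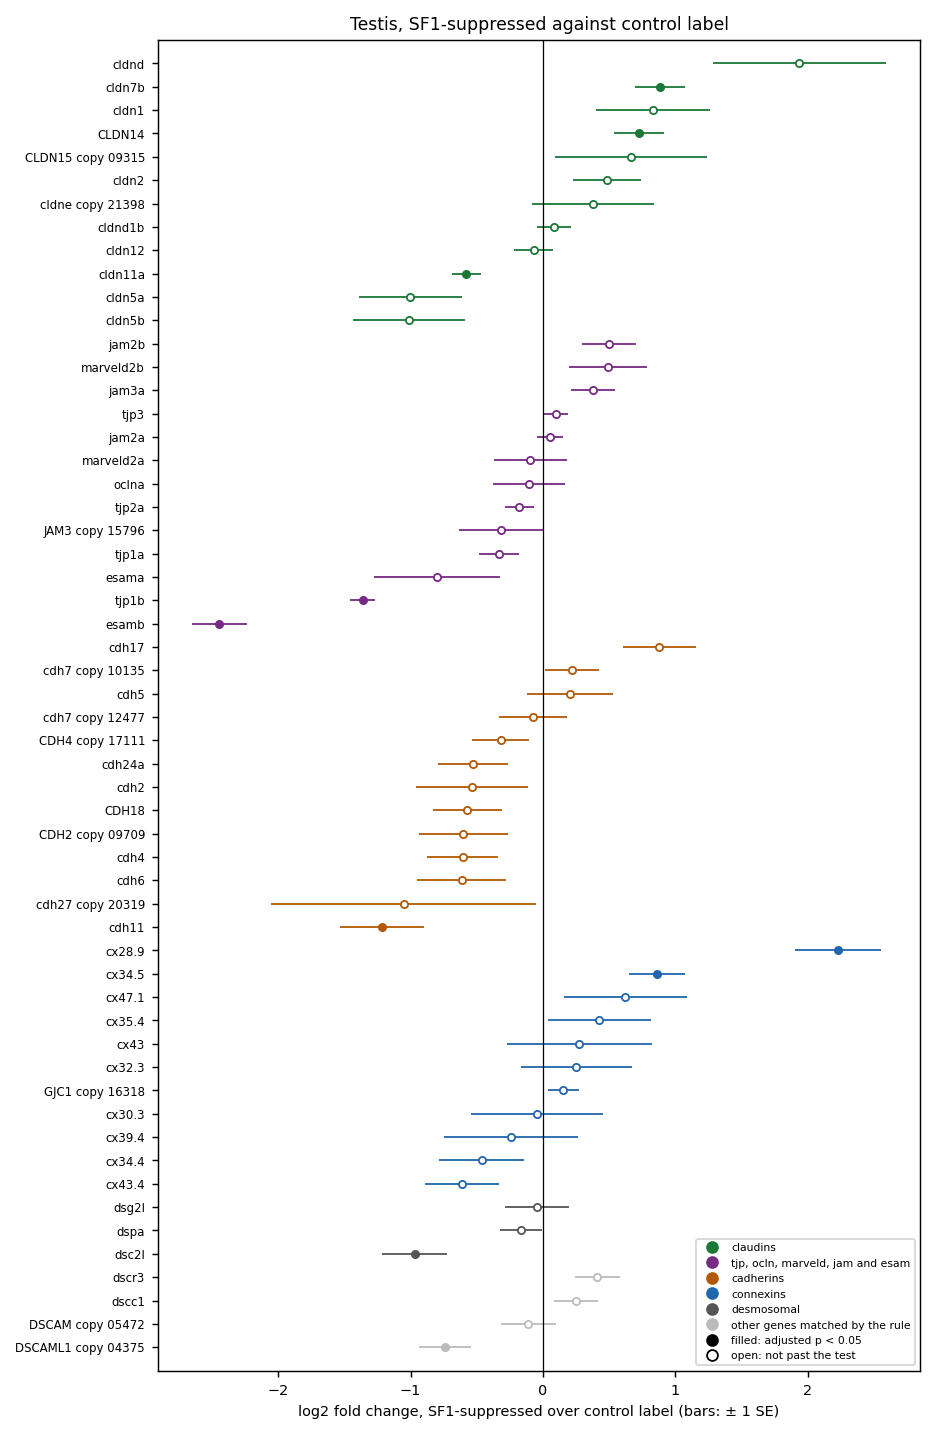
Log2 fold change of the 56 tested members in testis, SF1-suppressed over control label (x axis), with 1 SE (bars), grouped by family. The filled points are the 10 members past the test, from esamb at -2.44 to cx28.9 at 2.23.

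The connexins that rose in testis lie in 1 cluster. On scaffold GL831348.1 the genes cx28.9 (664368 to 668143), cx32.3 (669739 to 670590) and cx34.5 (673720 to 679844) follow one another on the minus strand with no gene between. In testis labelled SF1-suppressed cx28.9 had 35.1, 37.3 and 16.2 FPKM, against 4.56, 6.81 and 8.90 FPKM in control testis, with no overlap (log2 2.23 ± 0.32, SE; edgeR adjusted p = 0.00599). For cx34.5 the values were 18.5, 19.1 and 9.89 FPKM in testis labelled SF1-suppressed, against 9.50, 8.46 and 10.1 FPKM in controls. Suppressed replicate 3 lay inside the control range, and the log2 fold change was 0.86 ± 0.21 (SE, edgeR adjusted p = 0.0404). The call of cx34.5 was lost without any library except suppressed replicate 3 (edgeR adjusted p up to 0.193). It was also lost in 4 of 9 fits with another setting: total count scaling, either limma fit and the replicate block (adjusted p from 0.0815 to 0.152). The abundant cx32.3 had 209, 194 and 50.8 FPKM in testis labelled SF1-suppressed and 121, 127 and 158 FPKM in controls, so replicates 1 and 2 lay above and replicate 3 below all controls. Its log2 fold change was 0.25 ± 0.42 (SE, edgeR adjusted p = 0.721) with all libraries and 0.65 ± 0.11 (edgeR adjusted p = 0.00213) without suppressed replicate 3, when those of cx28.9 and cx34.5 were 2.50 and 1.09. In suppressed replicate 3 all 3 genes and nr5a1 were the lowest of their group. The same libraries moved in the Leydig cell list, of which 3 of 9 tested genes (star, hsd3b1 and hsd11b2) rose with all libraries and 7 without suppressed replicate 3. The list holds nr5a1 itself, which is among these 7. The stromal and smooth muscle list moved likewise, from 2 to 9 of 16 tested genes higher. Over all genes, 5.25% rose with all libraries and 9.19% without suppressed replicate 3. The summed FPKM of the Leydig cell list ran from 784 to 2379 in testis labelled SF1-suppressed and from 835 to 1350 in controls, with none of 9 at 0. The part of Leydig cells in the connexin values was not tested. A GJC1 copy (connexin 45, ENSONIG00000016318), at 54.4, 54.4 and 39.7 FPKM in testis labelled SF1-suppressed and 45.7, 49.8 and 48.2 FPKM in controls, did not pass (log2 0.15 ± 0.12, SE; edgeR adjusted p = 0.418). The connexin of mammalian Sertoli and granulosa cells, cx43, stayed low, at 1.98, 1.17 and 0.429 FPKM in testis labelled SF1-suppressed and 0.690, 1.04 and 1.44 FPKM in controls (log2 0.27 ± 0.55, SE; edgeR adjusted p = 0.771).

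Of the 13 cadherins tested in testis, cdh11, a cadherin of mesenchymal cells (GL831135.1, 8295088 to 8345098, minus strand), passed. It had 2.05, 2.29 and 0.904 FPKM in testis labelled SF1-suppressed, against 3.59, 3.94 and 5.55 FPKM in controls (log2 -1.22 ± 0.31, SE; edgeR adjusted p = 0.0470). The cadherins of the Sertoli and germ cell contact in rodents, cdh2 and its copy, had log2 fold changes of -0.53 ± 0.42 and -0.60 ± 0.34 (SE, edgeR adjusted p = 0.434 and 0.273). Without suppressed replicate 3 these were -0.16 and -0.26 (edgeR adjusted p = 0.651 and 0.130). For the desmocollin dsc2l the values were 5.19, 6.69 and 3.14 FPKM in testis labelled SF1-suppressed, against 8.97, 9.49 and 13.1 FPKM in controls, with no overlap (log2 -0.97 ± 0.24, SE; edgeR adjusted p = 0.0426). On the same scaffold, GL831134.1, the desmoglein dsg2l and the desmoplakin dspa had log2 fold changes of -0.04 ± 0.24 and -0.17 ± 0.16 (SE, edgeR adjusted p = 0.919 and 0.513). The calls of cdh11 and dsc2l were each lost without any library except suppressed replicate 3 (edgeR adjusted p up to 0.183 for cdh11 and 0.167 for dsc2l). Each was also lost in 2 of 9 fits with another setting. The DSCAML1 copy, an immunoglobulin gene of neurons, had 0.790, 0.755 and 0.594 FPKM in testis labelled SF1-suppressed, against 1.09, 1.47 and 1.30 FPKM in controls (log2 -0.74 ± 0.19, SE; edgeR adjusted p = 0.0492), and was lost without suppressed replicate 1 or 2 (edgeR adjusted p up to 0.116) and in 6 of 9 fits with another setting. It passed the filter only through the control libraries, so it could be tested only by being higher there.

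Partner genes of these junctions, some of them membrane proteins too, were read from lists. Of 40 tight junction plaque and polarity genes tested in testis, 3 were higher and 4 lower (6 and 5 of 40 without suppressed replicate 3), where 5.25% of all genes were higher and 5.68% lower. The 4 were the cingulins cgna, cgnb and cgnl1, which bind zonula occludens proteins, and the polarity gene pard6b. In testis labelled SF1-suppressed cgna had 7.72, 10.8 and 9.98 FPKM, against 16.1, 17.3 and 19.6 FPKM in controls (log2 -0.78 ± 0.15, SE; edgeR adjusted p = 0.0160), and the log2 fold changes of cgnb, cgnl1 and pard6b were -0.56, -0.45 and -0.51. Those that rose were magi1a (log2 1.20), the tricellular junction receptor lsr (0.53) and the guanine nucleotide exchange factor arhgef18a (0.70). Of 15 catenin, nectin and vinculin genes tested, vcla rose (log2 0.80) and ctnnd2b fell (-0.54), while β-catenin (ctnnb1) had a log2 fold change of -0.01 ± 0.21 (SE, edgeR adjusted p = 0.988). Of 10 desmosome plaque genes, PKP1, a plakophilin, had 9.89, 10.8 and 8.20 FPKM in testis labelled SF1-suppressed against 15.7, 17.5 and 19.0 FPKM in controls (log2 -0.74 ± 0.12, SE; edgeR adjusted p = 0.00931), and perp rose (log2 0.50). Without suppressed replicate 3, 4 of these 10 rose and 1 fell, as did 2 and 2 of the 15 catenin, nectin and vinculin genes.

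Genes of other cell type lists were also called between the testis groups. The part of these cell types in the junction values was not tested. Of all genes tested, 5.25% were higher and 5.68% lower, and 9.19% and 10.5% without suppressed replicate 3. Of 13 Sertoli cell genes tested, clu fell (log2 -2.99), sox9a rose (2.11) and 11 did not pass. Without suppressed replicate 3 the counts were 4 higher and 2 lower. Their summed FPKM ran from 1334 to 2499 in testis labelled SF1-suppressed and from 1632 to 1703 in controls, with gdnfa at 0 in testis labelled SF1-suppressed. Of 16 stromal and smooth muscle genes, 2 rose and 1 fell with all libraries, and 9 rose and 1 fell without suppressed replicate 3, with sums from 495 to 2653 FPKM in testis labelled SF1-suppressed (desma at 0) against 645 to 1080 FPKM in controls. All 4 exocrine pancreas and liver genes past the test of 7 were lower, with sums from 27.1 to 34.1 FPKM in testis labelled SF1-suppressed and from 56.5 to 69.0 in controls (ela2, fgg, fgb and apoa2 at 0 in testis labelled SF1-suppressed, ela3l and c8g in controls). Of 9 other epithelial genes 2 were lower, of 10 muscle genes 4 were higher and 1 lower, of 8 leukocyte genes 1 was higher, of 7 erythrocyte genes 1 was higher and 1 lower, of 18 spermatogenic genes 2 were higher and 2 lower, of 6 granulosa and theca genes 1 was higher and 1 lower, and none of 9 oocyte or 5 neural genes passed the edgeR test in either direction. Without suppressed replicate 3, 4 spermatogenic genes were higher and 3 lower, 3 leukocyte genes higher and 1 lower, 1 erythrocyte gene higher and 3 lower, 1 epithelial gene higher and 2 lower, and 3 of 9 muscle genes higher and 1 lower.

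In ovary, 22 of the 44 members tested passed the test between labels (50%), against 35.9% of all 12557 genes tested. The 7 that were higher in ovary labelled SF1-suppressed included the claudins cldnd and cldnd1b, the adhesion gene jam2a and the cadherins cdh17, CDH20 and a CDH12 copy (15.9% of members, against 18.1% of all genes). The 15 that were lower were the claudins cldn11a, cldn7b and cldnd1a, the scaffold tjp1a, the occludin oclna, the cadherins cdh6, cdh12a and both cdh7 copies, the connexins cx28.9, cx32.3 and cx34.5, the desmocollin dsc2l and, among the genes that are not junction genes, a DSCAM copy and dscc1 (34.1% of members, against 17.9% of all genes). The groups did not overlap for 7 members that were higher and 16 that were lower, against 18.5% and 31.5% of all genes. The median log2 fold change was -0.07 over the members tested and -0.005 over all genes tested. By family, 2 of 9 claudins rose and 3 fell, 1 of 9 connexins rose and 3 fell, 3 of 9 cadherins rose and 4 fell, 1 of 11 scaffold and membrane genes rose and 2 fell, and 1 of 3 desmosomal genes fell. With scaling by total count alone the share of higher genes among all those called was 36%, against 50.3% in the main fit, and 5 members were higher and 16 lower. In a fit of all 12 libraries the calls of members including cldnd, oclna, tjp1a, cdh12a, cdh6, dsc2l, dscc1 and the 3 connexins that fell were lost (edgeR adjusted p from 0.0570 to 0.407).

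The ovary claudin cldnd (GL831184.1, 3669119 to 3669751, plus strand) had 1434, 1362 and 1519 FPKM in ovary labelled SF1-suppressed, against 1053, 1078 and 955 FPKM in control ovary. All libraries labelled SF1-suppressed lay above all controls, and the log2 fold change was 0.55 ± 0.07 (SE, edgeR adjusted p = 0.000132). The claudin next in level, cldn7b, went the other way. It had 99.7, 92.4 and 104 FPKM in ovary labelled SF1-suppressed, against 138, 155 and 136 FPKM in controls, a log2 fold change of -0.46 ± 0.07 (SE, edgeR adjusted p = 0.000713). The strand claudin cldn11a, lower in ovary than in testis, had 3.55, 4.83 and 2.46 FPKM in ovary labelled SF1-suppressed, against 6.72, 12.6 and 11.3 FPKM in controls (log2 -1.43 ± 0.27, SE; edgeR adjusted p = 0.00252). The claudin domain genes parted: cldnd1a fell by 1.06 ± 0.16 and cldnd1b rose by 0.59 ± 0.19 on the log2 scale (SE, edgeR adjusted p = 0.000668 and 0.0390). The rise of cldnd1b was lost without suppressed replicate 2 or 3 or control replicate 1 or 2 (edgeR adjusted p up to 0.125).

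**Figure D3:**
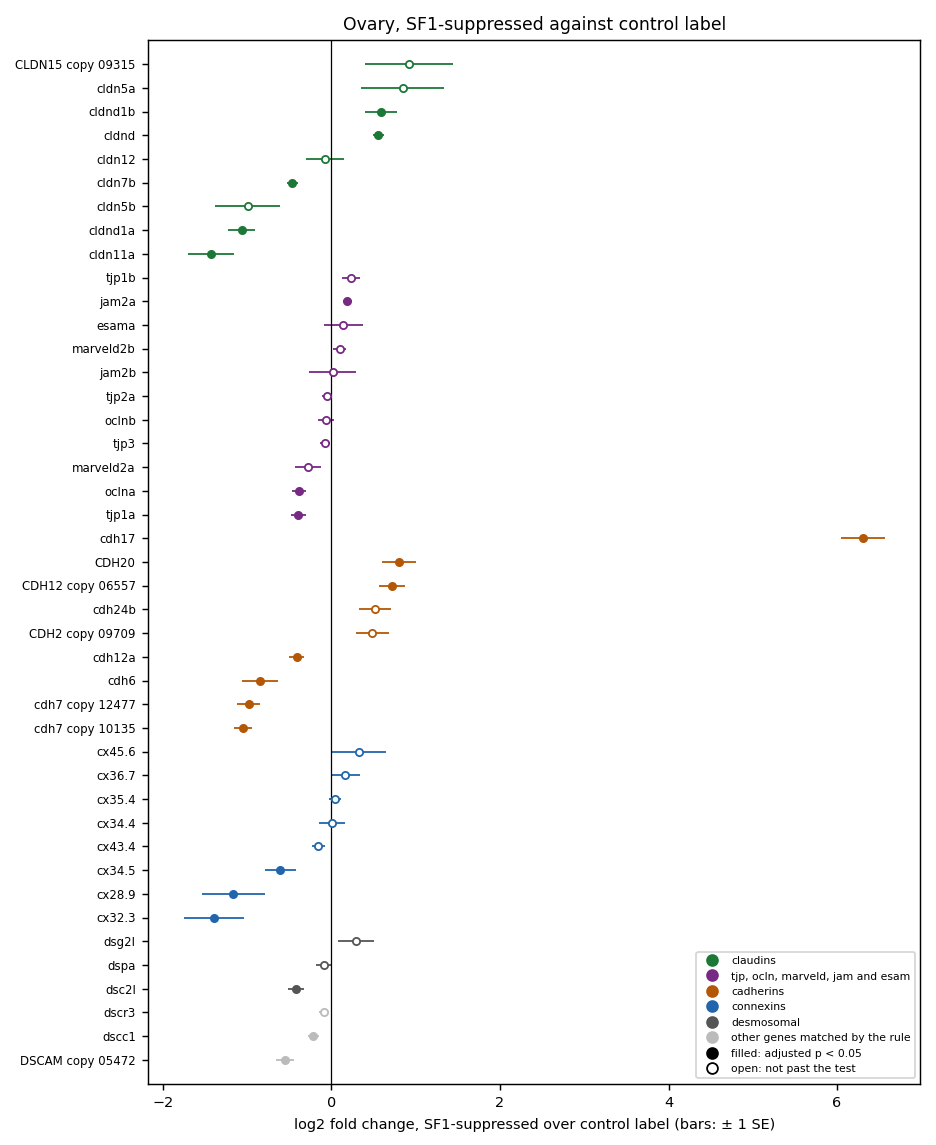
Log2 fold change of tested members in ovary, SF1-suppressed over control label (x axis), with 1 SE (bars), grouped by family. The filled points are members past the test, and cdh17 at 6.31 lies far to the right of all other points.

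Smaller changes were seen in the scaffold and membrane genes of the ovary. The occludin oclna had 15.2, 14.4 and 14.7 FPKM in ovary labelled SF1-suppressed, against 19.5, 19.8 and 21.4 FPKM in controls (log2 -0.38 ± 0.08, SE; edgeR adjusted p = 0.00521), with no overlap. The other occludin, oclnb, was as abundant, at 19.7, 18.04 and 19.5 FPKM in ovary labelled SF1-suppressed and 22.1, 22.1 and 18.7 FPKM in controls, and did not pass (log2 -0.06 ± 0.09, SE; edgeR adjusted p = 0.625). The scaffold tjp1a had 4.45, 4.64 and 3.87 FPKM in ovary labelled SF1-suppressed, against 5.70, 5.87 and 6.33 FPKM in controls (log2 -0.39 ± 0.09, SE; edgeR adjusted p = 0.00715). For tjp1b the values were 4.55, 5.78 and 4.84 FPKM in ovary labelled SF1-suppressed and 4.67, 4.07 and 4.77 FPKM in controls (log2 0.24 ± 0.11, SE; edgeR adjusted p = 0.118). The abundant jam2a rose slightly, by 0.19 ± 0.05 on the log2 scale (SE, edgeR adjusted p = 0.0190), a call lost without suppressed replicate 3 or control replicate 1 or 3 (edgeR adjusted p up to 0.0756), and also with total count scaling, either limma fit or the replicate block (adjusted p from 0.0631 to 0.108). The ovary libraries labelled SF1-suppressed held 52 counts of esamb in all and the control libraries 0, which makes it 17.2-fold higher under that label if the controls are set to a floor of 3 counts over the group. The counting error of the 52 counts and the spread among libraries are not covered, and the gene was below the filter.

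All 3 members of the connexin cluster on GL831348.1 fell in ovary. In ovary labelled SF1-suppressed cx34.5 had 20.9, 30.3 and 24.7 FPKM, against 28.6, 49.3 and 43.5 FPKM in controls (log2 -0.61 ± 0.18, SE; edgeR adjusted p = 0.0278). Their cx32.3 values were 5.11, 11.3 and 5.72 FPKM, against 10.8, 24.8 and 25.2 FPKM in controls (log2 -1.39 ± 0.36, SE; edgeR adjusted p = 0.0134), and their cx28.9 values were 2.82, 5.64 and 2.06 FPKM, against 4.71, 9.43 and 10.6 FPKM in controls (log2 -1.16 ± 0.38, SE; edgeR adjusted p = 0.0355). The groups overlapped in all 3, with suppressed replicate 2 above control replicate 1. These calls were lost without suppressed replicate 1, suppressed replicate 3 or control replicate 3, and for cx28.9 and cx34.5 also without control replicate 2 (edgeR adjusted p up to 0.125 for cx28.9, 0.109 for cx34.5 and 0.0547 for cx32.3). The calls of cx28.9 and cx34.5 were also lost with DESeq2 (adjusted p = 0.0726 and 0.0549). The leading ovary connexins cx35.4 and cx43.4 did not pass, with log2 fold changes of 0.04 ± 0.07 and -0.16 ± 0.08 (SE, edgeR adjusted p = 0.688 and 0.145).

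Among members tested in ovary, a cadherin had the largest change. The liver and intestine cadherin cdh17 (GL831229.1, 714742 to 731737, minus strand) had 2.75, 2.67 and 1.94 FPKM in ovary labelled SF1-suppressed, against 0.0321, 0.0307 and 0.0278 FPKM in control ovary, or 1988 counts against 24 in all. The log2 fold change was 6.31 ± 0.26 (SE, edgeR adjusted p = 1.74e-07). The gene passed the filter only through the libraries labelled SF1-suppressed, and it was also called with no FPKM filter. In testis the same gene had 1.90, 2.38 and 3.57 FPKM in libraries labelled SF1-suppressed and 1.44, 1.52 and 1.71 FPKM in controls, so its level in ovary labelled SF1-suppressed lay in the range of testis. Of the other intestinal, kidney and epithelial genes, 2 of 9 tested rose (epcam and nphs1) and 2 fell in ovary, against 18.1% and 17.9% of all genes. The summed FPKM of this list ran from 430 to 510 in ovary labelled SF1-suppressed and from 344 to 431 in controls. Of the 22 genes of that list, pax8, cdx4 and a FABP2 copy were at 0 in all ovary libraries and grhl2b, krt5 and pax2a in the controls, and the part of such cells in the cdh17 value was not tested. Both cdh7 copies fell: ENSONIG00000010135 to 4.75, 3.99 and 3.94 FPKM in ovary labelled SF1-suppressed, against 9.71, 9.19 and 8.59 FPKM in controls (log2 -1.04 ± 0.11, SE; edgeR adjusted p = 5.96e-05), and ENSONIG00000012477 to 2.58, 2.37 and 2.12 FPKM, against 5.32, 4.497 and 4.85 FPKM in controls (log2 -0.98 ± 0.14, SE; edgeR adjusted p = 0.000426). They lie on the short scaffolds GL831665.1 (11899 to 23086) and GL832255.1 (21 to 9581), and the files do not show whether they are separate genes. The type II cadherins cdh6 and cdh12a fell by 0.85 ± 0.21 and 0.41 ± 0.09 on the log2 scale (SE, edgeR adjusted p = 0.0109 and 0.00536), the reads of cdh12a being open to doubt because 2603 of its bases overlap a gene on the other strand. The CDH12 copy and CDH20 rose by 0.72 ± 0.16 and 0.81 ± 0.20 (SE, edgeR adjusted p = 0.00568 and 0.0120), and without suppressed replicate 3 the adjusted p of CDH20 was 0.0523. The desmocollin dsc2l fell by 0.42 ± 0.10 (SE, edgeR adjusted p = 0.00937). The DSCAM copy, a neuronal immunoglobulin gene, and dscc1, a sister chromatid cohesion gene, fell by 0.55 ± 0.11 and 0.22 ± 0.07 (SE, edgeR adjusted p = 0.00312 and 0.0305), the second call being lost without suppressed replicate 1 or 2 or control replicate 1 or 2 (edgeR adjusted p up to 0.0983).

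Of the same lists, 9 of 35 tight junction plaque and polarity genes rose and 9 fell in ovary, where 18.1% of all genes were higher and 17.9% lower. The atypical kinase gene prkcz had 2.66, 3.21 and 2.90 FPKM in ovary labelled SF1-suppressed, against 8.43, 8.69 and 7.60 FPKM in controls (log2 -1.42 ± 0.14, SE; edgeR adjusted p = 4.06e-05), and the polarity gene crb1 had 2.01, 1.84 and 1.94 FPKM in ovary labelled SF1-suppressed against 4.19, 4.31 and 4.20 FPKM in controls (log2 -1.06 ± 0.12, SE; edgeR adjusted p = 9.77e-05). The angiomotin-like amotl2a fell by 1.38 and pard6a rose by 1.20 on the log2 scale. Of 11 catenin, nectin and vinculin genes, 3 rose, among them the α-catenin ctnna2 (log2 1.24) and vcla (1.62), and 3 fell, among them a CTNND1 copy (p120 catenin, -1.26). Of 10 desmosome plaque genes 2 rose and 4 fell. PKP1 and perp, which were also called in testis, had the opposite sign in ovary (log2 0.77 for PKP1 and -0.58 for perp), and the testis change minus the ovary change was -1.55 ± 0.24 for PKP1 and 1.05 ± 0.16 for perp (SE; edgeR adjusted p = 0.00101 and 0.000732).

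Genes of the cell type lists were also called between the ovary groups, where 18.1% of all genes were higher and 17.9% lower. The part of these cell types in the junction values was not tested. Of 16 stromal and smooth muscle genes 12 rose and 2 fell, and their summed FPKM ran from 1008 to 1070 in ovary labelled SF1-suppressed and from 548 to 631 in controls, with thy1 at 0 in all 6 libraries. Of 4 exocrine pancreas and liver genes tested 3 fell, with sums from 19.2 to 26.2 FPKM in ovary labelled SF1-suppressed and from 172 to 405 in controls (ambp and ela3l at 0 in both groups, hpx in ovary labelled SF1-suppressed and ela2, fgg and apoa2 in controls). Of 11 leukocyte genes 4 fell, of 8 endothelial genes 1 rose and 2 fell, of 8 granulosa and theca genes 2 rose and 4 fell, of 11 Sertoli cell genes 3 rose and 1 fell, and of 8 Leydig cell genes 1 fell. Of 10 oocyte genes 6 rose and 1 fell, of 12 spermatogenic genes 6 rose and 2 fell, of 6 muscle genes 3 rose, of 3 neural genes 1 rose, and no erythrocyte gene reached the filter. The lists were not exclusive: bmp15 was named in both the granulosa and theca list and the oocyte list, and sycp3 in both the oocyte and spermatogenic lists.

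Of the 35 members tested in both gonads, 5 were called in both. The share of all genes called in both was not computed, and 10.9% of all genes passed in testis and 35.9% in ovary. Of the 5 members, cldn11a and dsc2l were lower in both gonads labelled SF1-suppressed, and no member was higher in both. The other 3, cldn7b, cx28.9 and cx34.5, were higher in testis and lower in ovary labelled SF1-suppressed. The difference between the changes was tested in 1 fit of all 12 libraries, in which 13 of 66 members passed, 5 with a higher testis change (7.58%, against 7.33% of all genes) and 8 with a lower one (12.1%, against 8.15% of all genes). Without suppressed testis replicate 3 these counts were 8 and 7 of 63, against 10.5% and 9.4% of all genes (19.9% in all). For cldn7b the testis change minus the ovary change was 1.31 ± 0.18 on the log2 scale, for cx28.9 it was 3.36 ± 0.58 and for cx34.5 it was 1.43 ± 0.32 (SE; edgeR adjusted p = 0.000459, 0.00214 and 0.0101). For cx32.3 it was 1.61 ± 0.64 (SE, edgeR adjusted p = 0.111) and without suppressed testis replicate 3 it was 2.05 ± 0.44 (edgeR adjusted p = 0.00629). For cldn11a and dsc2l it was 0.82 ± 0.32 and -0.59 ± 0.29 (SE, edgeR adjusted p = 0.107 and 0.195), so their changes in the gonads were not shown to differ. The fall of tjp1b in testis differed from its ovary change by -1.63 ± 0.14 (SE, edgeR adjusted p = 1.12e-05), whereas the changes of tjp1a differed by 0.03 ± 0.18 (SE, edgeR adjusted p = 0.946).

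**Figure D4:**
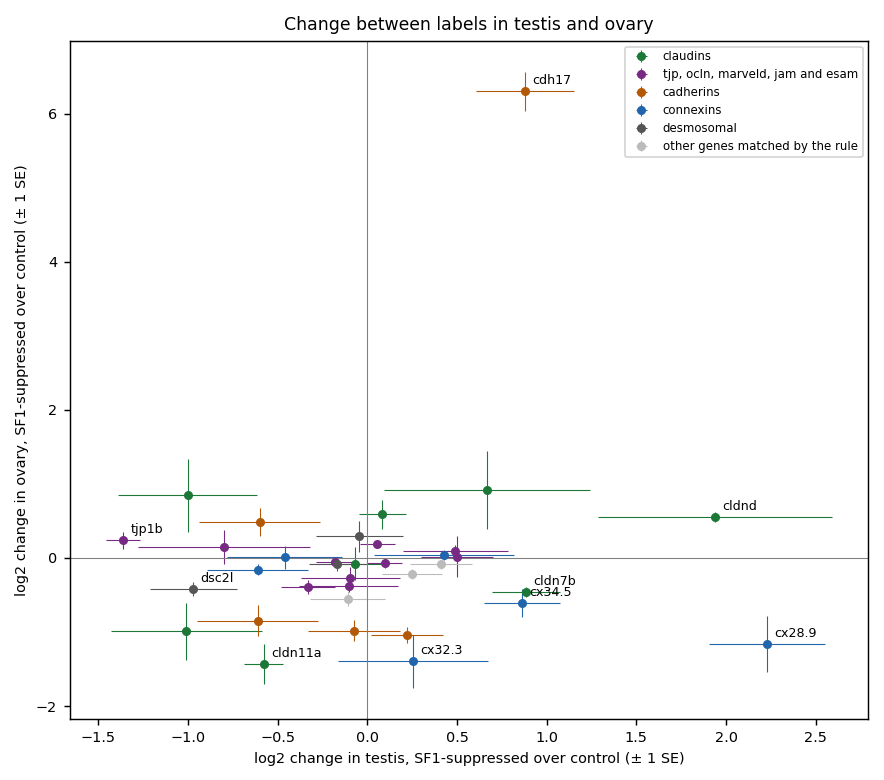
Log2 change between labels in testis (x axis) and ovary (y axis) of the 35 members tested in both gonads, SF1-suppressed over control, with 1 SE in each direction. The genes cx28.9, cx34.5 and cldn7b lie at the lower right, cldn11a and dsc2l at the lower left, and cdh17 stands at 6.31 on the ovary axis.

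The gonads themselves differed far more than the labels. Between control testis and control ovary 53 of 61 members passed (86.9%, against 86.3% of all genes), 29 of them higher in testis (47.5%, against 44.1% of all genes) and 24 lower (39.3%, against 42.3% of all genes). Between testis and ovary labelled SF1-suppressed 47 of 53 passed (88.7%, against 81.1% of all genes), 23 higher (43.4%, against 41.3% of all genes) and 24 lower (45.3%, against 39.9% of all genes). These counts include genes that are not junction genes. A DSCAM copy, dscc1 and dscr3 were lower in testis in both comparisons. A DSCAML1 copy was higher in control testis, by 6.51 on the log2 scale (edgeR adjusted p = 5.84e-06), and passed the filter only through testis. Control gonads did not overlap for 31 members higher in testis and 23 lower, against 48.2% and 39.8% of all genes, and gonads labelled SF1-suppressed for 21 and 23, against 44.3% and 39.9%. These comparisons share no library. Of the 53 members tested in both, 45 were called in both, 21 higher in testis and 24 lower, and none changed sign. Some of these, among them CLDN14, esamb, cx30.3, a CDH4 copy, cx36.7 and oclnb, passed the filter only through the gonad where they were higher. They could be tested only by being higher there, so the filter fixed their agreement in sign, which is no support. The share of all genes called in both was not computed, and 86.3% and 81.1% of all genes were called in the single comparisons. Without suppressed testis replicate 3, 17 members were higher and 22 lower of 45 tested, against 42.5% and 42.4% of all genes (84.9% in all). Scaling by total count moved the median of all genes by 0.19 between the control gonads and by 0.13 between those labelled SF1-suppressed.

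The paralogues of a family were often split between the gonads. Some members passed the filter only through the gonad where they were higher, so they could be tested only by being higher there. In both comparisons these included CLDN14, oclnb and esamb, and in libraries labelled SF1-suppressed also cldn2, jam3a and a JAM3 copy. Of the claudins, cldn11a was higher in testis by 4.66 ± 0.24 on the log2 scale in libraries labelled SF1-suppressed and by 3.79 ± 0.21 in controls (SE, edgeR adjusted p = 1.43e-06 and 1.46e-07), and cldn2, which forms cation and water pores in mammals, by 6.54 ± 0.55 and 4.20 ± 0.36 (SE, edgeR adjusted p = 1.64e-05 and 2.74e-06). Against these, cldnd was lower in testis by 8.76 ± 0.51 and 10.08 ± 0.29, and cldn7b by 3.58 ± 0.12 and 4.93 ± 0.13 (SE; edgeR adjusted p between 2.26e-09 and 2.39e-06 for cldnd and between 1.59e-09 and 2.63e-07 for cldn7b). CLDN14 had no count in control ovary and 1488 in control testis, which makes it 542-fold higher in control testis if control ovary is set to a floor of 3 counts over the group. Between gonads labelled SF1-suppressed CLDN14 was higher in testis by 7.12 on the log2 scale (edgeR adjusted p = 3.89e-05). The claudin cldn1, which also passed the filter only through testis, was higher there in both comparisons. Its difference was 5.84 ± 0.92 in libraries labelled SF1-suppressed and 2.76 ± 0.80 in controls (SE, edgeR adjusted p = 0.000579 and 0.0092). Of the zonula occludens genes, tjp1b was higher in testis by 2.65 ± 0.11 in libraries labelled SF1-suppressed and 4.23 ± 0.09 in controls, and tjp1a by 2.58 ± 0.15 and 2.50 ± 0.10, while tjp2a was lower in testis by 1.55 ± 0.11 and 1.44 ± 0.07 (SE; edgeR adjusted p of 5.73e-06 or less for each). The occludins and the tricellulin marveld2b were ovary genes: oclna was lower in testis by 2.83 ± 0.15 and 3.12 ± 0.21, oclnb by 5.88 ± 0.39 and 5.38 ± 0.18, and marveld2b by 4.05 ± 0.23 and 4.46 ± 0.13, all past the edgeR test. On GL831481.1 oclnb and marveld2b are neighbours, as are oclna and marveld2a on GL831259.1, but marveld2a did not differ past the edgeR test (log2 0.32 ± 0.26 and 0.12 ± 0.21, SE; adjusted p = 0.277 and 0.596). Without suppressed testis replicate 3, marveld2a was higher in testis than in ovary under that label (log2 0.80, edgeR adjusted p = 0.00243). The adhesion genes jam3a and a JAM3 copy were higher in testis and jam2a lower, by 5.92 ± 0.23, 4.41 ± 0.56 and -0.88 ± 0.09 in libraries labelled SF1-suppressed and by 5.45 ± 0.28, 3.42 ± 0.50 and -0.76 ± 0.07 in controls. With 3932 counts in control testis and none in control ovary, esamb was 1433-fold higher in control testis against the same floor. Between gonads labelled SF1-suppressed esamb was higher in testis by 3.98 on the log2 scale (edgeR adjusted p = 0.000145). Its paralogue esama did not differ past the test (log2 -0.85 ± 0.50 and 0.08 ± 0.26, SE; edgeR adjusted p = 0.148 and 0.790).

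**Figure D5:**
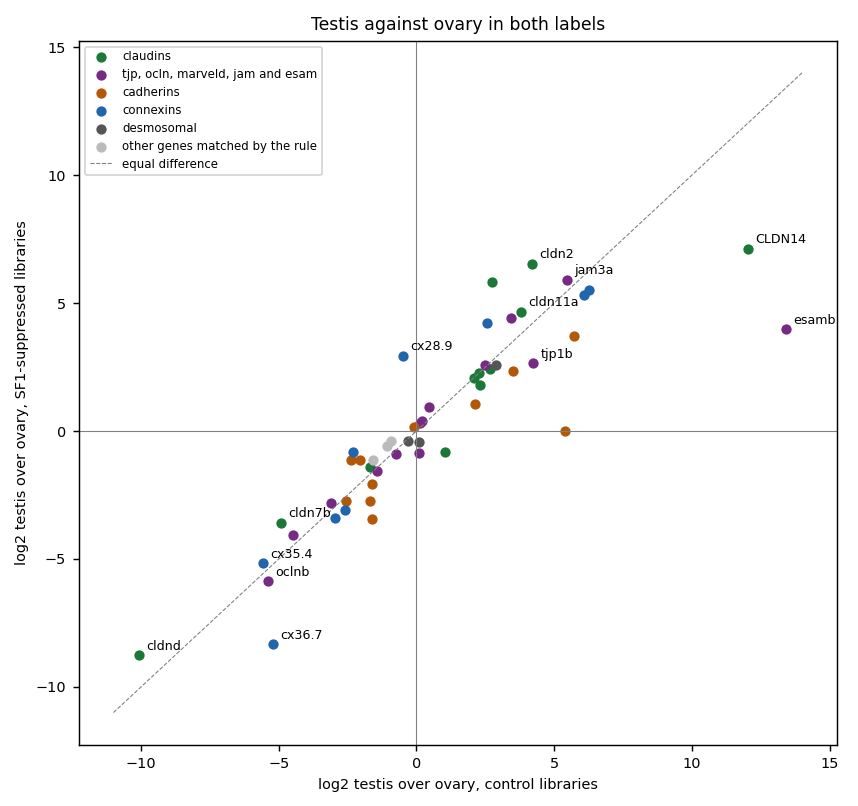
Log2 testis over ovary of members tested in both comparisons, in control libraries (x axis) and in libraries labelled SF1-suppressed (y axis), with the line of equal difference dashed. CLDN14 and esamb had no count in control ovary, so their positions on the x axis rest on the prior count of the fit, and cldnd lies lowest at -10.08 and -8.76.

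Connexins were split likewise. Of those below, cx30.3 and cx36.7 passed the filter only through the gonad where they were higher, and a GJC1 copy did so in controls. A GJC1 copy, cx30.3 and cx32.3 were higher in testis, by 5.52 ± 0.20, 5.31 ± 1.04 and 4.22 ± 0.57 in libraries labelled SF1-suppressed and by 6.26 ± 0.24, 6.09 ± 0.63 and 2.55 ± 0.28 in controls (SE, all past the edgeR test). The ovary connexins included cx36.7, cx35.4, cx43.4 and cx34.4, lower in testis by 8.33 ± 0.71, 5.17 ± 0.19, 3.41 ± 0.26 and 3.07 ± 0.29 in libraries labelled SF1-suppressed and by 5.21 ± 0.43, 5.58 ± 0.22, 2.97 ± 0.11 and 2.61 ± 0.20 in controls. The pair cx35.4 and cx34.4 are neighbours on GL831177.1. In the cluster on GL831348.1 the gonads were not shared evenly: cx32.3 was a testis gene, cx34.5 was lower in testis by 0.81 ± 0.24 in libraries labelled SF1-suppressed and 2.29 ± 0.18 in controls (SE, edgeR adjusted p = 0.0138 and 1.67e-06), and cx28.9 was higher in testis labelled SF1-suppressed (log2 2.94 ± 0.44, SE; edgeR adjusted p = 0.000416) and not past the test between controls (-0.47 ± 0.32, edgeR adjusted p = 0.184). Without suppressed testis replicate 3 the difference of cx34.5 was -0.32 (edgeR adjusted p = 0.0506).

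Among cadherins, 3 of 11 were higher and 6 lower in testis than in ovary labelled SF1-suppressed (41.3% and 39.9% of all genes), and 9 of 16 were higher and 6 lower between control gonads (44.1% and 42.3% of all genes). These counts rest on different sets of tested genes. A CDH4 copy in both comparisons, and cdh2, cdh4, cdh5, cdh11, cdh17, cdh24a and CDH18 in controls, passed the filter only through testis. The CDH12 copy, CDH20 and cdh24b in both comparisons, and cdh12a in libraries labelled SF1-suppressed, did so only through ovary. Such genes could be tested only by being higher there. The filter thus fixed the direction of most of these calls, and the counts are no support for a split. A CDH4 copy (R-cadherin) was higher in testis by 3.73 ± 0.29 in libraries labelled SF1-suppressed and 5.71 ± 0.18 in controls, and cdh2 by 2.35 ± 0.53 and 3.49 ± 0.37, while cdh12a was lower by 2.74 ± 0.17 and 2.57 ± 0.14 and the CDH12 copy by 3.43 ± 0.24 and 1.62 ± 0.23 (SE, all past the edgeR test). The cadherin cdh17 was higher in control testis than in control ovary (log2 5.40 ± 0.32, SE; edgeR adjusted p = 2.14e-07), and between the gonads labelled SF1-suppressed its log2 difference was -0.01 ± 0.29 (edgeR adjusted p = 0.964). Between control gonads cdh24a and cdh11 were also higher in testis, by 4.69 ± 0.48 and 4.50 ± 0.32 (SE, edgeR adjusted p = 1.1e-05 and 8.14e-07). Of the desmosomal genes, dsg2l was higher in testis by 2.58 ± 0.22 in libraries labelled SF1-suppressed and 2.90 ± 0.24 in controls (SE, edgeR adjusted p = 2.03e-05 and 2.13e-06), and dsc2l did not differ past the test (-0.43 ± 0.23 and 0.11 ± 0.15, SE; edgeR adjusted p = 0.121 and 0.512). The desmoplakin dspa was called lower in testis in both comparisons. Without suppressed testis replicate 3 its log2 difference under that label was 0.0008 ± 0.12 (SE, edgeR adjusted p = 0.995). The claudin cldn12, higher in testis by 2.27 ± 0.16 and 2.25 ± 0.21, lies wholly within adam22 on the other strand, so its reads are uncertain.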

How the data were processed

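RNA of 12 gonad libraries was sequenced, 3 in each of 4 groups. The table deposited by the authors holds, per the file headers, columns named count and FPKM for 22283 genes, 17380 with a symbol, and 0 value columns were left unassigned. HISAT and StringTie are named, without versions, per the submitters' processing notes, and neither the labels nor the file headers used here give the build, annotation release or strand setting. The deposited counts are whole numbers, and they were taken to be expected counts (estimates) because StringTie is named, which is an inference. The FPKM made by the authors were used for levels and for the filter, with genes at 0 counts, listed by the authors at 0.0001, taken as 0.

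The deposited expected counts of genes reaching 1 FPKM in 3 or more of the libraries compared went into edgeR 4.0.16 (R 4.3.3, TMM scaling, quasi-likelihood test), with p-values adjusted over all genes tested (Benjamini-Hochberg, threshold 0.05) and the SE taken from the F statistic. Each comparison used its own 6 libraries, and the difference of changes all 12. Alternatives were DESeq2 1.42.0, limma 3.58.1 on log2(FPKM + 1) and log2(FPKM + 0.1), other scalings and filters, a replicate block, all libraries in 1 fit, and each library left out. The main edgeR fits between labels, in testis and in ovary, were tested on simulated data with 200 changed genes. The gonad comparisons, the difference of changes and the alternatives were not. Folds against a floor of 3 counts set a limit only for the group at 0 counts. They leave out the counting error of the other group and the spread among libraries.

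The members, gene lists and rules were chosen with earlier results of these data known. Results of 1 member are not reported here beyond the counts. Otherwise, members past the test between labels or in the difference of changes were named, with the 10 largest gonad differences in each direction, the 3 highest of each family in each group, a fixed list of known barrier genes, and up to 4 genes of each other list. Replicate numbers were not shown to pair the libraries and were not in the main fits.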

Additional observations from a re-analysis of the deposited data

Results flagged for a closer look

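For 13 members the change between labels in testis differed from that in ovary in the edgeR test of the difference itself. Values are the testis change minus the ovary change on the log2 scale with SE.

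The scaffold tjp1b had a difference of -1.63 ± 0.14 (edgeR adjusted p = 1.12e-05) and the adhesion gene esamb one of -9.55 ± 0.94 (edgeR adjusted p = 0.000111). The value of esamb is no bound, because control ovary had no count and the fitted size depends on the prior count, and it fell in testis while ovary labelled SF1-suppressed held 52 counts against 0 in control ovary. The cadherin cdh17 had a difference of -5.46 ± 0.42 (edgeR adjusted p = 7.19e-06), with a testis change of 0.88 ± 0.27 that did not pass (edgeR adjusted p = 0.0805) and an ovary change of 6.31.

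Other cadherins differed as follows. The CDH12 copy had -1.86 ± 0.29 (edgeR adjusted p = 0.00115), with 0.266, 0.352 and 0.278 FPKM in testis labelled SF1-suppressed against 0.628, 0.785 and 0.682 FPKM in control testis, below the filter for testis alone. CDH20 had -1.09 ± 0.34 (edgeR adjusted p = 0.0470), a call that was lost in all 12 fits with 1 library left out (edgeR adjusted p up to 0.122, log2 from -1.21 to -0.91). The CDH4 copy had -2.04 ± 0.33 (edgeR adjusted p = 0.00138), with 432 counts in ovary labelled SF1-suppressed against 130 in control ovary, and cdh4 had -1.56 ± 0.43 (edgeR adjusted p = 0.0304), with 214 counts in ovary labelled SF1-suppressed against 111 in control ovary, a call lost in 8 of 12 such fits (edgeR adjusted p up to 0.0769). The cdh7 copy ENSONIG00000010135 had 1.23 ± 0.21 (edgeR adjusted p = 0.00204).

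Among claudins, cldn7b had a difference of 1.31 ± 0.18 (edgeR adjusted p = 0.000459) and cldn2 one of 2.29 ± 0.64 (edgeR adjusted p = 0.0303). Of these, cldn2 had 21.4, 21.2 and 26.8 FPKM in testis labelled SF1-suppressed against 24.3, 15.9 and 13.5 FPKM in control testis, and 0.0440, 0.396 and 0.220 FPKM in ovary labelled SF1-suppressed against 0.681, 1.22 and 0.661 FPKM in control ovary. Its call was lost in 4 of 12 fits, those without testis control replicate 2 or 3, ovary suppressed replicate 3 or ovary control replicate 2 (edgeR adjusted p up to 0.0820).

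Among connexins, cx28.9 had a difference of 3.36 ± 0.58 (edgeR adjusted p = 0.00214), cx34.5 one of 1.43 ± 0.32 (edgeR adjusted p = 0.0101) and cx36.7 one of -3.17 ± 0.91 (edgeR adjusted p = 0.0339). That of cx36.7, a gene of the early heart in zebrafish, rests on 4 counts in testis labelled SF1-suppressed against 29 in control testis and was lost in 9 of 12 fits (edgeR adjusted p up to 0.0937).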

How the results depend on the processing

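Among the 10 members called in testis, tjp1b and esamb kept their calls in every fit run, and cx28.9 lost its call only with the replicate block (edgeR adjusted p = 0.0652). In ovary 8 of 22 kept theirs (cldn11a, cldnd1a, cldn7b, a DSCAM copy, cdh17, the CDH12 copy and both cdh7 copies), in the difference of changes 8 of 13, and all 20 named members of each gonad comparison did, in the fits that tested them. Without single suppressed ovary libraries cdh17 was below the filter and not tested. Members higher in testis numbered 2 with total count scaling or with limma at either pseudocount, and 0 with the replicate block, against 4. Members lower in testis numbered 3 with limma on log2(FPKM + 0.1) and 2 with the replicate block, against 6. All genes past the testis test numbered 2890 with DESeq2, 2873 with all 12 libraries in 1 fit and 276 with the replicate block, against 1571. The cause was not tested. In ovary the fit of all 12 libraries left 6 members lower (15 in the main fit) and 2541 genes past the test (4510). Members higher in testis than ovary, labelled SF1-suppressed, numbered 41 with no FPKM filter and 39 with filterByExpr, against 23, where more genes were tested.

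Replicate numbers were not shown to pair the libraries: the same-number correlations ran from -0.293 to 0.111, and the replicate block changed the testis counts as above. The same number was the best match for replicates 2 and 3 between gonads labelled SF1-suppressed and for replicate 3 between control gonads. With 3 libraries per group these correlations cannot exclude pairing.

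With 1 library left out, members higher and lower ranged from 1 to 6 and 2 to 7 in testis (all genes 312 to 2790), 3 to 7 and 11 to 15 in ovary (3141 to 4069), 14 to 29 and 18 to 23 between control gonads (10193 to 11981), 15 to 21 and 15 to 22 between gonads labelled SF1-suppressed (9256 to 10504), and 4 to 8 and 5 to 9 in the difference of changes (1672 to 3043). A member that reached 1 FPKM in the libraries of 1 group only fell below the filter when a library of that group was left out, and was then not tested. Members higher in control testis than control ovary numbered 17, 16 and 14 without control testis replicate 1, 2 or 3. They numbered 29, 28 and 28 without control ovary replicate 1, 2 or 3. The change of cx32.3 in testis, 0.25 in the main fit and past no test, was -0.074 with limma on log2(FPKM + 1), -0.077 with log2(FPKM + 0.1), and from -0.052 to 0.654 with 1 library left out, at the lowest without suppressed replicate 1 and the highest without suppressed replicate 3.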

Other observations

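Outside the members, 32 protocadherins and atypical cadherins were in the table. In testis 1 of 19 tested rose and 2 fell (2 and 3 of 18 without suppressed replicate 3), and in ovary 2 of 8 rose and 1 fell. Of all genes tested, 5.25% rose and 5.68% fell in testis, and 18.1% rose and 17.9% fell in ovary. The brush border cadherin CDHR2 had 2.29, 2.77 and 2.22 FPKM in testis labelled SF1-suppressed, against 0.180, 0.482 and 0.389 FPKM in control testis (log2 2.89 ± 0.35, SE; edgeR adjusted p = 0.00276), and pcdh19 and pcdh7b fell by 0.96 and 0.94 on the log2 scale. In ovary pcdh9 had 1.35, 1.31 and 1.57 FPKM in libraries labelled SF1-suppressed, against 0.0127, 0.0122 and 0 FPKM in controls (log2 7.39 ± 0.46, SE; edgeR adjusted p = 1.76e-06). The calsyntenin clstn2 had 4.04, 4.04 and 3.50 FPKM in ovary labelled SF1-suppressed, against 0.532, 0.589 and 0.493 FPKM in controls (log2 2.90 ± 0.17, SE; edgeR adjusted p = 1.34e-06), and its testis change did not pass (log2 -0.26 ± 0.44, edgeR adjusted p = 0.729). Both pcdh9 and clstn2 passed the filter only through the ovary libraries labelled SF1-suppressed, as CDHR2 did in testis. Of 2 genes tested in ovary from a list of pannexins and gap junction regulators, tjap1 rose (log2 0.31 ± 0.10, SE; edgeR adjusted p = 0.0285). Its symbol stands for a tight junction associated protein, so this is not a gap junction result.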
